A study of Homo sapiens with 6 samples.

Results

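The genes described here encode membrane proteins that carry amino acids and related small molecules. They were the protein-coding rows of the count table whose symbol belongs to the solute carrier (SLC) families SLC1, SLC3, SLC6, SLC7, SLC36, SLC38 or SLC43. The rule found 61 of the 63677 rows, with 58 distinct symbols, because SLC6A8, SLC6A14 and SLC38A5 each had a second row without a count. A count in any library was held by 57 rows, and 38 genes passed the filter on low counts and were tested. Membership rests on family and not on what is carried. SLC6A6 carries taurine, SLC6A8 creatine, SLC6A2, SLC6A3 and SLC6A4 monoamine transmitters, and SLC43A3 nucleobases, so the name amino acid transporter does not hold for every gene of the set.

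The RNA came from human embryonic stem cells in the naive state, which resembles the embryo before implantation, and in the primed state, the usual state of such cells in culture. The 2 lines were Royan H6, here RH6, and Royan H5, here RH5. There were 4 naive libraries, 2 each of RH6 at passage 10 and RH5 at passage 17, and 2 primed libraries, 1 of RH6 at passage 20 and 1 of RH5 at passage 16. Induction of naive cells used 2a2iL, and their maintenance medium was 2iL with passaging by trypsin, whereas primed cells grew with bFGF. All cells grew on inactivated mouse embryonic fibroblasts (MEF), and no genetic change is given for any group. State, medium and passaging cannot be told apart in these libraries. In RH6 the passage number, 10 in naive against 20 in primed cells, cannot be told apart from state either, while in RH5 it was 17 against 16. The labels do not state that paired naive libraries were separate cultures, so the p-values measure the spread between libraries, which may be technical. In the fit over both lines, unequal responses of RH6 and RH5 to state also add to the spread. A gene whose lines disagreed can thus go uncalled there although its duplicates were close. For SLC1A1 the SE was 0.47 over both lines against 0.18 within RH6 and 0.18 within RH5.

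Amino acid transport is split between carriers that use the sodium or proton gradient to concentrate amino acids and exchangers that swap an internal amino acid for an external one. Glutamine taken up by sodium-coupled carriers can leave again in exchange for leucine, and leucine is sensed by the kinase complex mTORC1. In cultured pluripotent cells amino acids feed protein synthesis, one-carbon metabolism and the making of glutathione from imported cystine.

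Total counts were 13457979 to 14663982 per library, and the 61 rows took 0.424% and 0.389% of them in naive RH6 and 0.375% and 0.366% in naive RH5, against 0.309% in primed RH6 and 0.358% in primed RH5. Naive markers from a list were called higher in 6 of 8 tested genes and lower in 0. KLF17, a defining naive factor, had 0 and 2 counts in naive RH6 and 13 and 18 in naive RH5, against 0 and 0 in primed cells, and DPPA5 had a single count in all. KLF4 and TFCP2L1 were not called. Of 8 general pluripotency markers 4 were lower and 0 higher in naive cells, of 7 tested primed markers 6 were lower, and CD24 was at 0 in every library. Fibroblast markers were higher in 6 and lower in 1 of 11 tested genes, with summed levels of 544 to 1118 CPM (counts-per-million units on normalized library sizes) in naive libraries and 315 and 300 CPM in primed libraries. Trophectoderm markers were higher in 6 and lower in 1 of 11 genes, with sums of 633 to 713 CPM in naive libraries against 207 and 241 CPM in primed libraries. Some lists share a gene. TFAP2C, called higher, was in the naive and the trophectoderm list, and THY1, called lower, was in the primed and the fibroblast list. Mesendoderm markers were higher in 2 and lower in 2 of 11 genes, and their sums were 313 to 399 CPM in naive libraries against 56.6 CPM in primed RH6 and 331 CPM in primed RH5. Neural markers were lower in 5 and higher in 0 of 13 genes. Their sums overlapped, at 577 to 1137 CPM in naive libraries against 713 and 529 CPM in primed libraries, while SIX6 was at 0 in the naive libraries and GFAP had at most 4 counts there. Most of each neural sum came from NES alone, at 562 to 1066 CPM in naive libraries and 535 and 465.5 CPM in primed libraries. NES was not called over both lines, so these sums say little about the other neural markers. The part of such cells in the results below was not tested, and in bulk RNA fewer cells of a type and less RNA per cell cannot be told apart.

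The first question was which transporter genes differed between naive and primed cells over both lines. Of the 38 tested genes, 9 were called higher in naive cells (23.7%) and 8 lower (21.1%), at an adjusted p under 0.05 by edgeR's quasi-likelihood test with Benjamini-Hochberg adjustment. Among all 19434 genes tested, 12.1% were called higher and 13.6% lower. Calls with a change of at least 2-fold were 5 higher and 6 lower, against 6.49% and 8.95% of all genes. The median log2 fold change, naive over primed, was -0.08 over the 38 genes and -0.01 over all genes, and the median of its size without sign was 0.69 and 0.39. The 4 naive and the 2 primed libraries did not overlap in CPM for 20 of the 38 genes, against 44.3% of all genes tested. The same held for 15 of the 17 called genes, but the calls rest on these same libraries. The share among all called genes was not counted. When each line's naive libraries were summed, 4 transporter genes were called higher (SLC1A2, SLC1A3, SLC6A6 and SLC7A5) and 1 lower (SLC1A6), while calls over all genes also fell, to 2.43% higher and 3.09% lower. Without primed RH5 15 were higher (16.5% of all genes), without primed RH6 14 were lower (15.9%), each the other line's effect alone, and without the second naive RH6 library 5 were lower (8.33%).

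**Figure D1:**
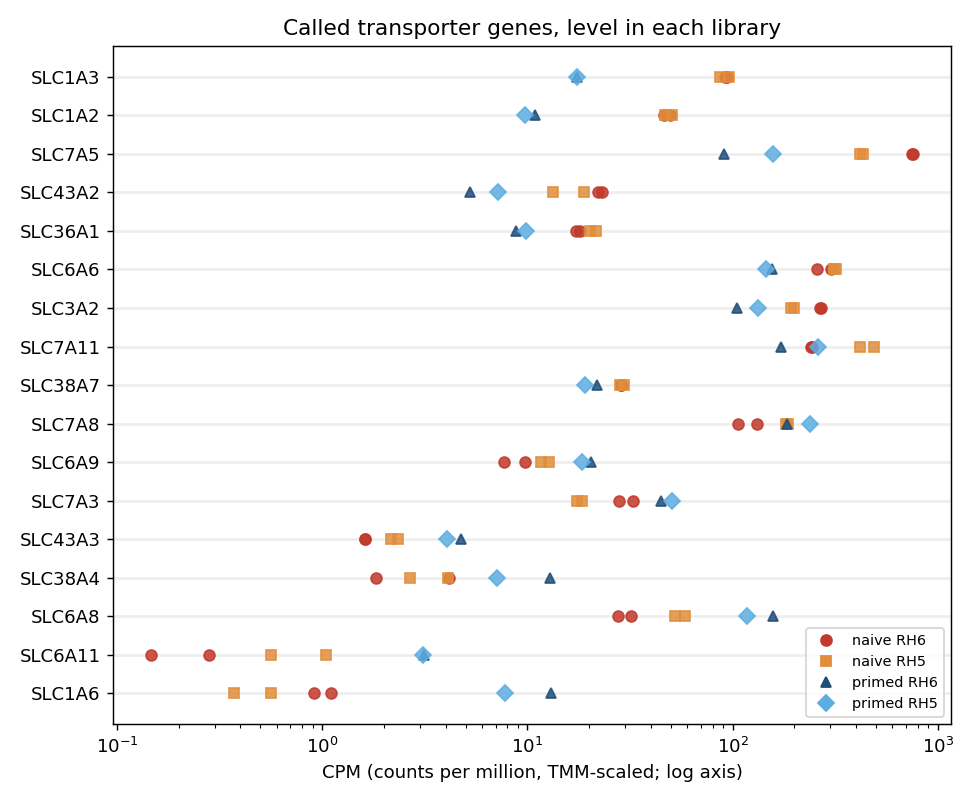
Level of the 17 genes called over both lines in each library, in CPM on a log axis, ordered by log2 fold change with the highest at the top; each point is 1 library. For SLC1A3 the naive libraries lie at 86.9 to 96.0 CPM and both primed libraries near 17.4 CPM, while for SLC7A11 and SLC7A8 naive and primed points overlap.

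The glutamate carriers of family SLC1 held the largest changes in both directions among the called genes. These proteins couple glutamate and aspartate uptake to sodium and are best known for clearing glutamate in the brain. SLC1A3 (ENSG00000079215), also called GLAST or EAAT1, had 94.2 and 91.4 CPM in naive RH6 and 86.9 and 96.0 CPM in naive RH5, against 17.4 CPM in primed RH6 and 17.5 CPM in primed RH5. All naive libraries were above both primed libraries, and the log2 fold change was 2.40 ± 0.11 (SE, adjusted p = 6.74e-05), a 5.29-fold rise. SLC1A2 (ENSG00000110436), or GLT-1, had 49.6 and 46.3 CPM in naive RH6 and 50.8 and 47.0 CPM in naive RH5, against 10.9 CPM in primed RH6 and 9.71 CPM in primed RH5. Its log2 fold change was 2.23 ± 0.13 (adjusted p = 1.27e-04), and its groups were likewise apart. Within the lines the log2 effect of SLC1A3 was 2.42 ± 0.14 in RH6 and 2.39 ± 0.14 in RH5, and that of SLC1A2 was 2.13 ± 0.16 and 2.33 ± 0.16 in the same order of lines. The difference of these effects, RH6 minus RH5, was 0.03 ± 0.19 for SLC1A3 and -0.20 ± 0.22 for SLC1A2, and neither was called.

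SLC1A6 (ENSG00000105143), EAAT4, known from cerebellar Purkinje cells, moved the other way. It had 0.911 and 1.10 CPM in naive RH6 and 0.566 and 0.373 CPM in naive RH5, against 13.0 CPM in primed RH6 and 7.82 CPM in primed RH5. The naive levels came from 5 to 15 counts per library, and every naive library was below both primed libraries. Its log2 fold change was -3.83 ± 0.25 (adjusted p = 1.78e-04), the largest fall among the 38 genes. SLC1A1 (ENSG00000106688), EAAT3, which also takes up cysteine, had 22.7 and 24.2 CPM in naive RH6 and 6.29 and 7.17 CPM in naive RH5, against 10.1 CPM in primed RH6 and 14.3 CPM in primed RH5. The naive libraries lay on both sides of the primed ones. Over both lines the log2 fold change was -0.03 ± 0.47 (adjusted p = 0.971). The lines went opposite ways, with 1.22 ± 0.18 in RH6 (adjusted p = 5.17e-04) against -1.08 ± 0.18 in RH5 (0.00128). Summed over the family members that carry glutamate and aspartate, CPM was 145 to 167 in naive libraries against 51.5 and 49.3 in primed libraries. SLC1A7, EAAT5 of the retina, had 4 counts in all and was not tested.

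The 250 bases before the transcription start of SLC1A3 are shown because it was among the most strongly raised genes and because its upstream sequence holds, in capitals, the 8 letters TGATGNAA searched for as the core of the C/EBP-ATF response element, the site through which ATF4 acts on amino acid genes. Sequences here are from RefSeq on GRCh38.p14, written on the strand of the gene from 5′ to 3′. SLC1A5 is shown because its upstream sequence holds the same letters while its level moved in opposite directions in the lines, and SLC7A5 because it showed the largest rise in RH6 and holds no match in this window. The regions are chr5:36596338-36596587 on the plus strand for SLC1A3, chr19:46784815-46785064 on the minus strand for SLC1A5 and chr16:87869508-87869757 on the minus strand for SLC7A5.
SLC1A3: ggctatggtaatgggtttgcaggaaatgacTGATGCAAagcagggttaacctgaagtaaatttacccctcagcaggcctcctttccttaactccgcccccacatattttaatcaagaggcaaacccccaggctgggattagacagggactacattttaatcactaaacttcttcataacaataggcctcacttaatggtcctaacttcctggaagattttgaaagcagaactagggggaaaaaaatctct
SLC1A5: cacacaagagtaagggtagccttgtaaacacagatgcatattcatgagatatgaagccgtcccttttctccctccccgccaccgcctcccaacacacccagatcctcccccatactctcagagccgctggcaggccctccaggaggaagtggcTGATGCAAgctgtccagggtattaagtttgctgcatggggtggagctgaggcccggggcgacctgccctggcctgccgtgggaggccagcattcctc
SLC7A5: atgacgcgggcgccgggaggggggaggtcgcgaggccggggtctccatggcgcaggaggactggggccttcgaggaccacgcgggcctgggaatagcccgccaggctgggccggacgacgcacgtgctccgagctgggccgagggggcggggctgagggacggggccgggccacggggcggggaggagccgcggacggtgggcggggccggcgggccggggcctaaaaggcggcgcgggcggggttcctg
The match began 220 bases before the start in SLC1A3 and 97 bases before it in SLC1A5. RefSeq lists further starts for SLC1A3 and SLC1A5 without a match, and gene counts do not show which start the cells used.

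Promoters of 250 bases before to 50 bases after a start were at hand for 44 of the 58 symbols, with 66 starts. At least 1 start with TGATGNAA on either strand was found for 6 of these 44 genes (13.6%), which were SLC1A3, SLC1A4, SLC1A5, SLC38A1, SLC3A2 and SLC7A1. The share among all 27305 genes of the table was 4.46%. Of the genes called over both lines with a promoter at hand, a match was held by 2 of 6 higher genes, SLC1A3 and SLC3A2, and by 0 of 6 lower genes. A match in letters is a description and not a site, and genes with more listed starts had more chances of one.

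SLC1A5 (ENSG00000105281), ASCT2, is the main exchanger for glutamine in many growing cells and swaps it for serine, alanine or threonine. It had 195 and 176 CPM in naive RH6 and 145 and 137 CPM in naive RH5, against 141 CPM in primed RH6 and 211 CPM in primed RH5. Naive RH6 was above its primed library and naive RH5 below its own, so the groups overlapped. RH6 cells showed a log2 effect of 0.39 ± 0.12 (adjusted p = 0.0282), RH5 cells one of -0.58 ± 0.12 (adjusted p = 0.00338), and both lines together -0.12 ± 0.21 (adjusted p = 0.717). The related SLC1A4, ASCT1, was low, at 3.14 to 4.49 CPM in naive libraries against 4.83 and 6.16 CPM in primed libraries, and was not called. In GENCODE release 29, 23.4% of the exon bases of SLC1A5 lie opposite the antisense gene AC008622.2.

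The heteromeric exchangers pair a light chain of family SLC7, which forms the path for the substrate, with a heavy chain of family SLC3, which brings the pair to the membrane. SLC7A5 (ENSG00000103257), LAT1, imports leucine and other large neutral amino acids in exchange for glutamine. Its level was 759 and 751 CPM in naive RH6 and 431 and 419.9 CPM in naive RH5, against 91.2 CPM in primed RH6 and 158 CPM in primed RH5. Every naive library was above both primed libraries, and naive RH6 stood apart above naive RH5. Over both lines the log2 fold change was 2.16 ± 0.36 (adjusted p = 0.00605). RH6 showed a log2 effect of 3.05 ± 0.13 (adjusted p = 1.49e-07) and RH5 one of 1.43 ± 0.12 (adjusted p = 1.10e-05), and the difference of 1.62 ± 0.16 was called (adjusted p = 1.65e-04). SLC7A5 took 17.4% and 18.6% of the transporter counts in naive RH6 and 11.6% and 11.4% in naive RH5, against 3.03% in primed RH6 and 4.52% in primed RH5. Its pseudogene SLC7A5P1 had 27 to 40 counts in naive libraries and 24 and 16 in primed libraries, beside 5621 to 10827 and 1359 and 2178 counts of SLC7A5, and any sharing of reads between them was not tested.

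SLC3A2 (ENSG00000168003), the heavy chain 4F2hc or CD98, had 268 and 270.5 CPM in naive RH6 and 198 and 193 CPM in naive RH5, against 105.5 CPM in primed RH6 and 133 CPM in primed RH5. The groups did not overlap, and the order of the libraries was nearly that of SLC7A5. Its log2 fold change was 0.94 ± 0.18 (adjusted p = 0.0107). RH6 gave 1.35 ± 0.12 and RH5 0.56 ± 0.11, with a called difference of 0.79 ± 0.16 (adjusted p = 0.00927). When naive libraries were summed by line, its call over both lines was lost (adjusted p = 0.0854). The other heavy chain, SLC3A1 of kidney and gut, had 39 counts in all and was not tested.

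SLC7A11 (ENSG00000151012), xCT, exports glutamate and imports cystine for glutathione. It had 244 and 242 CPM in naive RH6 and 420.1 and 490.2 CPM in naive RH5, against 173 CPM in primed RH6 and 261.5 CPM in primed RH5. Each naive pair was above the primed library of its own line, but naive RH6 was below primed RH5. The log2 fold change over both lines was 0.64 ± 0.12 (adjusted p = 0.00991), and RH6 gave 0.49 ± 0.13 and RH5 0.80 ± 0.13. Without a term for the line the call was lost (adjusted p = 0.211), as it was with naive libraries summed (adjusted p = 0.105). Its exons share 8.97% of their bases with the opposite-strand SLC7A11-AS1, which had 145 to 184 counts in naive libraries against 89 and 99 in primed libraries. The strand setting of the counting is not given in the sources used here.

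Among the other light chains, SLC7A8 (LAT2), a neutral exchanger, fell by 0.51 ± 0.12 on the log2 scale (adjusted p = 0.024), at 106 to 186 CPM in naive libraries against 184 and 239 CPM in primed libraries. Its call was lost without the second naive RH6 library (adjusted p = 0.0534) or either naive RH5 library (0.0626 and 0.0597), without the line term (0.208) and with naive libraries summed (0.180). SLC7A6 (ENSG00000103064), which exchanges arginine for neutral amino acids, had 31.9 and 24.9 CPM in naive RH6 and 21.1 and 20.2 CPM in naive RH5, against 17.2 CPM in primed RH6 and 23.4 CPM in primed RH5. It was called higher in RH6 alone of the lines, by 0.73 ± 0.18 (adjusted p = 0.0109), and the difference from RH5 was 0.91 ± 0.25 (adjusted p = 0.042). That difference was not called with DESeq2 (adjusted p = 0.151) or limma-voom (adjusted p = 0.051). Of the exon bases of SLC7A6, 44.4% are shared with SLC7A6OS on the opposite strand, which had 94 to 161 counts per library. SLC7A7, its relative in gut and kidney, was called in RH6, at a log2 effect of 0.93 ± 0.24 (adjusted p = 0.012, or 0.113 with DESeq2), and not over both lines (adjusted p = 0.0757). SLC7A9, SLC7A10 and SLC7A13 had 6, 46 and 0 counts in all and were not tested.

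**Figure D2:**
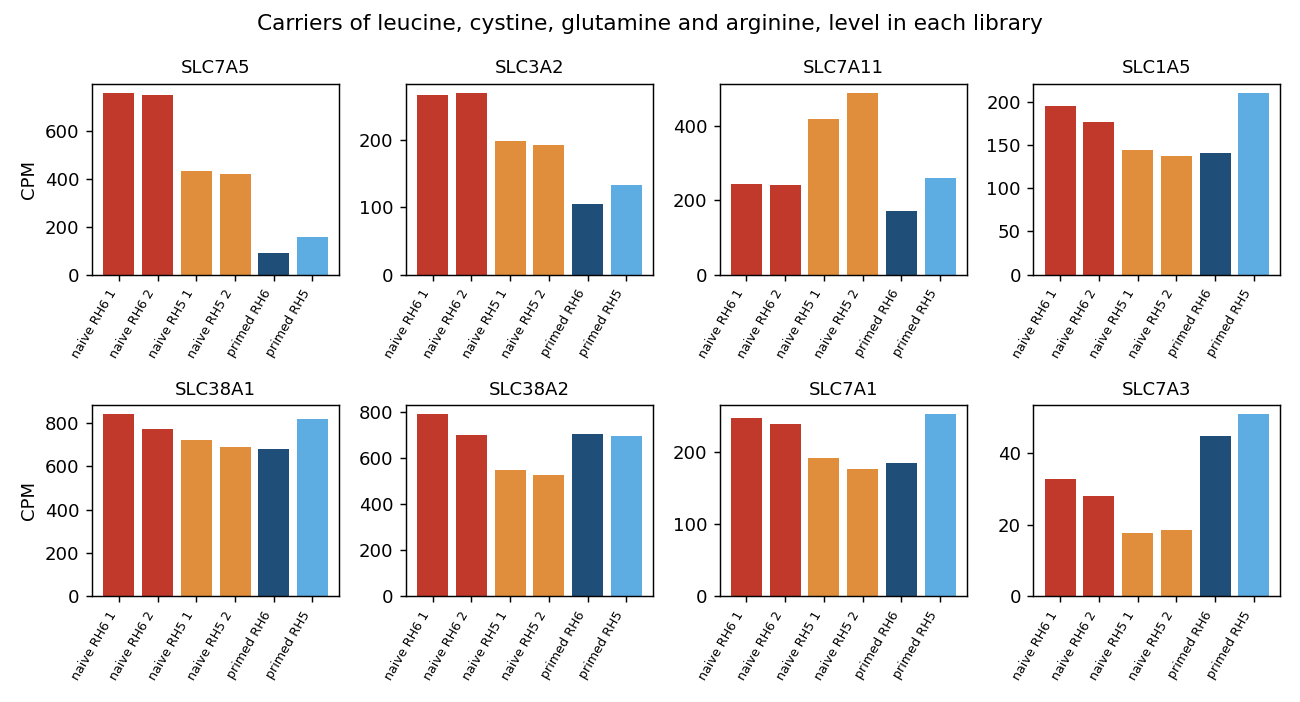
Level in CPM of 8 carriers of leucine, cystine, glutamine and arginine, 1 bar per library, each panel with its own axis from 0. SLC7A5, SLC3A2 and SLC7A11 are higher in naive than in primed cells of the same line, SLC7A3 is lower, and SLC1A5 and SLC7A1 are higher in RH6 and lower in RH5.

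The cationic carriers of family SLC7 bring arginine and lysine into the cell along the membrane potential. SLC7A3 (ENSG00000165349), CAT3, had 32.7 and 27.9 CPM in naive RH6 and 17.5 and 18.4 CPM in naive RH5, against 44.6 CPM in primed RH6 and 50.6 CPM in primed RH5. All naive libraries were below both primed libraries. It fell by 1.04 ± 0.21 on the log2 scale (adjusted p = 0.0123, or 0.116 after summing naive libraries), by 0.56 ± 0.14 in RH6 and by 1.49 ± 0.14 in RH5, with a difference of 0.94 ± 0.21 (adjusted p = 0.0159) that DESeq2 did not call (adjusted p = 0.0561). SLC7A1 (ENSG00000139514), CAT1, the widespread arginine carrier, had 248 and 239 CPM in naive RH6 and 192 and 177 CPM in naive RH5, against 185 CPM in primed RH6 and 253 CPM in primed RH5. As for SLC1A5, naive RH6 was above and naive RH5 below the primed library of its line. The log2 effects were 0.39 ± 0.12 (adjusted p = 0.0239) in RH6 and -0.45 ± 0.11 (adjusted p = 0.0108) in RH5. SLC7A2 (ENSG00000003989), CAT2, had 59.5 and 46.3 CPM in naive RH6 and 94.6 CPM in both naive RH5 libraries, against 83.6 CPM in primed RH6 and 85.4 CPM in primed RH5. Naive RH6 was the low group, with a log2 effect of -0.66 ± 0.15 (adjusted p = 0.00648), beside 0.15 ± 0.15 in RH5 (adjusted p = 0.485).

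SLC7A14 (ENSG00000013293), a lysosomal member of the family, was a gene of few counts. It had 46 and 63 counts in naive RH6 and 1 and 3 counts in naive RH5, against 10 counts in primed RH6 and 9 counts in primed RH5. Naive RH6 was high and naive RH5 at or under the floor of 3 counts, so no fold is given for RH5. The log2 effect in RH6 was 2.53 ± 0.51 (adjusted p = 0.00381). SLC7A4, with 2 to 11 counts in naive libraries and 1 and 7 counts in primed libraries, was not called in any comparison.

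Family SLC6 couples uptake of transmitters and related molecules to sodium and chloride. SLC6A6 (ENSG00000131389), TauT, takes up taurine and had 303 and 259 CPM in naive RH6 and 312 and 319 CPM in naive RH5, against 155 CPM in primed RH6 and 146 CPM in primed RH5. The groups were well apart, and the log2 fold change was 0.98 ± 0.12 (adjusted p = 0.00184). SLC6A8 (ENSG00000130821), the creatine carrier CRT, had 32.0 and 27.5 CPM in naive RH6 and 58.4 and 52.7 CPM in naive RH5, against 158 CPM in primed RH6 and 118 CPM in primed RH5. Every naive library was below both primed ones, and naive RH6 was lowest. It fell by 1.79 ± 0.27 on the log2 scale (adjusted p = 0.00397), by 2.41 ± 0.13 in RH6 and 1.08 ± 0.13 in RH5, and the difference of -1.32 ± 0.19 was called (adjusted p = 0.00161). With naive libraries summed the call over both lines was lost (adjusted p = 0.0520). A pseudogene of this gene, SLC6A10P, had 0 to 2 counts in naive libraries and 5 and 1 in primed libraries.

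SLC6A11 (ENSG00000132164), GAT3, takes up the transmitter GABA, in brain mainly in astrocytes. It had 0.280 and 0.147 CPM in naive RH6 and 0.566 and 1.05 CPM in naive RH5, against 3.15 CPM in primed RH6 and 3.12 CPM in primed RH5. Naive RH6 was about at the 0.201 to 0.224 CPM that 3 counts are worth, and no naive library reached a primed one. The fitted log2 fold change was -2.75 ± 0.50 (adjusted p = 0.00825), and its call was lost with naive libraries summed (adjusted p = 0.0707). SLC6A9, the glycine carrier GlyT1, fell by 0.92 ± 0.19 on the log2 scale (adjusted p = 0.0145), at 7.71 to 12.8 CPM in naive libraries against 20.3 and 18.5 CPM in primed libraries. Its call was lost without the second naive RH6 library (adjusted p = 0.0551) and with naive libraries summed (0.139). SLC6A3 (ENSG00000142319), the dopamine carrier DAT, had 3 and 1 counts in naive RH6 and 12 and 16 counts in naive RH5, against 14 counts in primed RH6 and 5 counts in primed RH5. Naive RH6 and primed RH5 were low and the other libraries higher, all at few counts. The adjusted p of its difference between the lines was 0.03, and DESeq2 gave that test no adjusted p. As measured facts beside these genes of brain, the neural markers RAX, SIX3, PAX6, GFAP and LHX2 were called lower in naive cells. PAX6 had 1.26 to 1.62 CPM in naive libraries against 36.8 and 12.1 CPM in primed libraries, and the part of these markers was not tested.

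Of the SLC6 carriers of neutral amino acids, SLC6A15, SLC6A16 and SLC6A17 were tested and none was called over both lines. SLC6A15, which carries branched-chain amino acids in brain, was called lower in RH5, at -0.73 ± 0.16 (adjusted p = 0.00648), and had 13.9 to 28.9 CPM in naive libraries against 26.2 and 24.1 CPM in primed libraries. The remaining SLC6 genes had few counts and were not tested. Counts over the 6 libraries were 30 for SLC6A2, 24 for SLC6A4, 1 for SLC6A5, 10 for SLC6A7, 21 for SLC6A12, 12 for SLC6A13, 3 for SLC6A14, 7 for SLC6A18, 20 for SLC6A19 and 26 for SLC6A20.

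SLC38A1 (ENSG00000111371), SNAT1, and SLC38A2 (ENSG00000134294), SNAT2, concentrate glutamine and other small neutral amino acids with sodium, and were among the 3 transporter genes with the most counts in naive cells. SLC38A1 had 838 and 771 CPM in naive RH6 and 721 and 689.5 CPM in naive RH5, against 677 CPM in primed RH6 and 818 CPM in primed RH5. SLC38A2 had 788 and 698 CPM in naive RH6 and 546 and 526 CPM in naive RH5, against 703 CPM in primed RH6 and 693 CPM in primed RH5. The groups overlapped for both, and the log2 fold changes of 0.01 ± 0.13 and -0.15 ± 0.13 were not called (adjusted p = 0.962 and 0.449). In RH5 alone SLC38A2 was called lower, at -0.37 ± 0.12 (adjusted p = 0.0349).

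SLC38A4 (ENSG00000139209), SNAT4, an imprinted carrier of placenta and liver in mouse, had 4.14 and 1.84 CPM in naive RH6 and 2.69 and 4.11 CPM in naive RH5, against 12.9 CPM in primed RH6 and 7.10 CPM in primed RH5. No naive library reached a primed one. It fell by 1.62 ± 0.38 on the log2 scale (adjusted p = 0.0214), and the call was lost without the first naive RH6 library (adjusted p = 0.0527), without the first naive RH5 library (0.0652), without primed RH6 (0.0607) and with naive libraries summed (0.0859). SLC38A7, a lysosomal exporter of glutamine and asparagine, rose by 0.49 ± 0.12 (adjusted p = 0.0282), at 28.4 to 29.6 CPM in naive libraries against 21.9 and 19.2 CPM in primed libraries. That call was lost without any 1 of the 4 naive libraries (adjusted p = 0.0691 to 0.0962), with upper-quartile factors (0.0517) and with naive libraries summed (0.256). SLC38A9 (ENSG00000177058), the lysosomal arginine sensor of mTORC1, had 37.6 and 32.6 CPM in naive RH6 and 23.5 and 19.5 CPM in naive RH5, against 35.8 CPM in primed RH6 and 45.4 CPM in primed RH5. Both naive RH5 libraries stood below both primed libraries and naive RH6 lay on either side of primed RH6, with a log2 effect of -1.08 ± 0.16 in RH5 (adjusted p = 4.75e-04) and -0.03 ± 0.16 in RH6 (adjusted p = 0.908). SLC38A5 (ENSG00000017483), SNAT5, had 7.36 and 6.70 CPM in naive RH6 and 2.76 and 1.34 CPM in naive RH5, against 5.37 CPM in primed RH6 and 8.98 CPM in primed RH5. Naive RH5 was again the low group, at -2.12 ± 0.33 in RH5 (adjusted p = 8.40e-04) and 0.39 ± 0.32 in RH6 (adjusted p = 0.384).

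SLC38A6 and SLC38A10 were called in neither line. SLC38A8 and SLC38A11 had 14 and 2 counts in all and were not tested. SLC38A3 is labelled a processed transcript in the count table and so fell outside the rule, and it had 2, 4, 8 and 5 counts in naive libraries against 52 and 34 counts in primed libraries.

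The proton-coupled carrier SLC36A1 (ENSG00000123643), PAT1, releases small neutral amino acids from lysosomes. It had 18.0 and 17.2 CPM in naive RH6 and 20.3 and 21.6 CPM in naive RH5, against 8.79 CPM in primed RH6 and 9.85 CPM in primed RH5. The groups did not overlap, and the log2 fold change of 1.05 ± 0.14 (adjusted p = 0.00274) was 1.00 ± 0.18 in RH6 and 1.09 ± 0.17 in RH5. With naive libraries summed the call was lost (adjusted p = 0.0770). SLC36A4 was not called, at 28.1 to 36.4 CPM in naive libraries against 36.8 and 40.6 CPM in primed libraries, and SLC36A2 and SLC36A3, with 15 and 4 counts in all, were not tested.

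In family SLC43, which moves large neutral amino acids along their gradient without an ion, SLC43A2 (ENSG00000167703), LAT4, had 23.2 and 22.0 CPM in naive RH6 and 18.9 and 13.4 CPM in naive RH5, against 5.23 CPM in primed RH6 and 7.17 CPM in primed RH5. Every naive library was above both primed libraries, and the log2 fold change was 1.62 ± 0.27 (adjusted p = 0.00623, or 0.0553 after summing naive libraries). SLC43A3 (ENSG00000134802), a nucleobase carrier, had 1.61 and 1.62 CPM in naive RH6 and 2.33 and 2.17 CPM in naive RH5, against 4.76 CPM in primed RH6 and 4.06 CPM in primed RH5. Naive libraries were all lower, with a fall of 1.21 ± 0.27 (adjusted p = 0.0169). Of its exon bases 29.9% are shared with AP000781.2 on the same strand, which had 0 counts. The call of SLC43A3 was lost without either naive RH6 library (adjusted p = 0.0588 and 0.0652), without primed RH6 (0.0737) and with naive libraries summed (0.175). SLC43A1, LAT3, was called lower in RH5, at -1.40 ± 0.24 (adjusted p = 0.00145), and not over both lines (-0.88 ± 0.28, adjusted p = 0.0569), where DESeq2 gave 0.0441 and upper-quartile factors 0.0404.

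The second question was how each line changed. In RH6, 14 of the 38 genes were called higher and 10 lower in naive cells, against 16.4% and 17.2% of all genes tested. In RH5, 9 were called higher and 13 lower, against 16.5% and 17% of all genes. The median log2 effect over the 38 genes was 0.25 in RH6 and -0.20 in RH5. Of the 38 genes, 26 had the same sign in both lines. The same sign was held by 67.9% of all genes. A call in the same direction in both lines was held by 13 genes, of which 8, SLC1A2, SLC1A3, SLC3A2, SLC7A5, SLC7A11, SLC6A6, SLC36A1 and SLC43A2, were higher (8.26% of all genes) and 5, SLC1A6, SLC6A8, SLC6A9, SLC6A11 and SLC7A3, lower (9.57%). Calls in opposite directions were held by 3 genes, SLC1A1, SLC1A5 and SLC7A1, which were higher in naive RH6 and lower in naive RH5 than in primed cells of the line, against 1.57% of all genes. No call in either line was made for 8 genes, and the share of such genes over all genes was not counted. In these fits only the naive pairs gave an estimate of the spread, which was taken to hold for the single primed libraries as well.

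**Figure D3:**
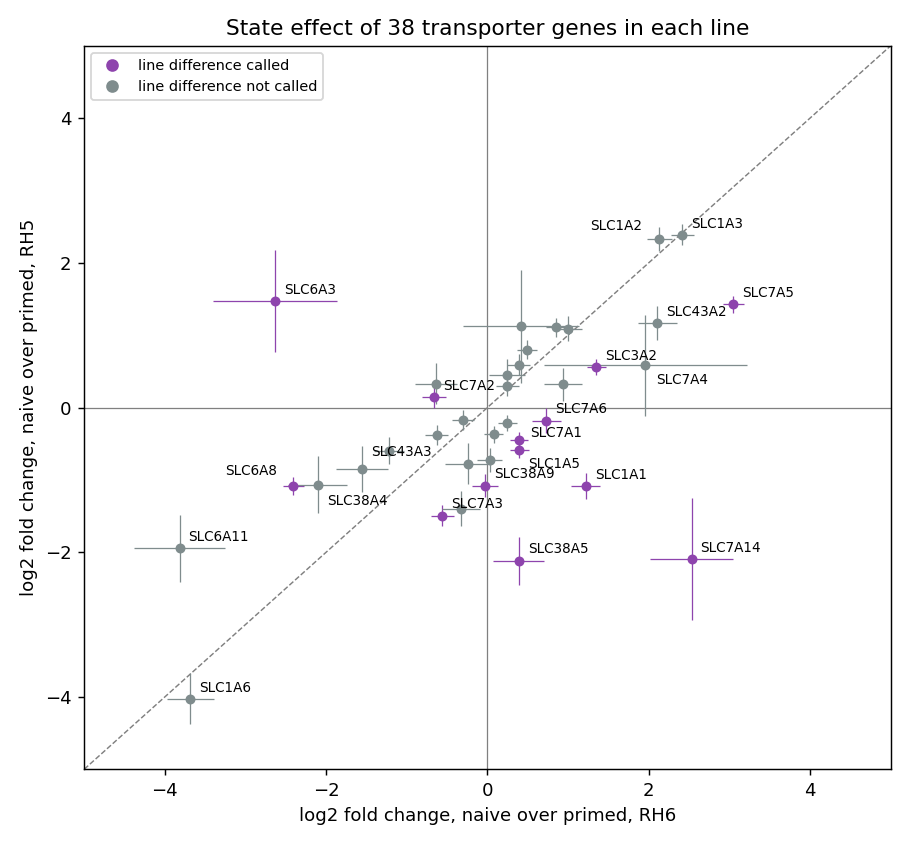
Log2 fold change of naive over primed cells in RH6 (x axis) and in RH5 (y axis) for the 38 tested genes, with 1 SE as bars; the dashed line marks equal effects, and purple points are the 13 genes whose difference between the lines was called. SLC1A2 and SLC1A3 lie close to the line of equal effects, and SLC7A5, at 3.05 and 1.43, lies below it. Of the purple points, SLC1A1, SLC1A5, SLC7A1, SLC7A6, SLC7A14 and SLC38A5 lie at lower right. The RH5 position of SLC7A14 is a fitted value from 1 and 3 counts in naive RH5.

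The difference of the effects, RH6 minus RH5, was tested directly. It was called for 13 genes, 10 with a higher effect in RH6 (26.3%) and 3 with a lower one (7.89%), against 5.86% and 6.16% of all genes tested. The differences of the genes not given above were 2.30 ± 0.26 for SLC1A1 (adjusted p = 3.82e-04), 0.97 ± 0.17 for SLC1A5 (0.00438), 0.85 ± 0.16 for SLC7A1 (0.00761), 2.51 ± 0.47 for SLC38A5 (0.00681) and 1.05 ± 0.22 for SLC38A9 (0.0137). SLC7A2 had -0.81 ± 0.21 (adjusted p = 0.0342), which DESeq2 did not call (0.0541). DESeq2 called 1 of the genes with a lower effect in RH6. Marker genes moved in the same test. Mesendoderm markers had a higher effect in RH6 in 9 and a lower one in 0 of 11 genes (median difference 3.61), neural markers in 0 and 6 of 13 (-1.73), fibroblast markers in 3 and 0 of 11 (-0.12) and trophectoderm markers in 3 and 2 of 11 (-0.45), and their part was not tested. The lone primed libraries differed in level. Primed RH6 over primed RH5 in CPM, among the 13 genes, was under 0.8 for SLC7A5 (0.578), SLC38A5 (0.598), SLC1A5 (0.671), SLC1A1 (0.705), SLC7A1 (0.732), SLC7A6 (0.734), SLC38A9 (0.789) and SLC3A2 (0.794). It was 0.881 for SLC7A3, 0.979 for SLC7A2, 1.03 for SLC7A14, 1.34 for SLC6A8 and 2.59 for SLC6A3, the last from 14 and 5 counts. With 1 library each, these ratios have no test. The ratio is also part of the difference by which the 13 genes were picked. A low ratio is thus favoured where the effect was higher in RH6, and it is no separate observation. The share of such ratios over all genes was not counted.

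Between the naive groups alone, which have duplicates on both sides, 13 of the 38 genes were called higher in RH6 than in RH5 and 5 lower, against 12% and 13.5% of all genes tested. The higher genes included SLC1A1 and SLC38A5, at log2 fold changes of 1.80 ± 0.15 and 1.76 ± 0.30, and SLC7A5 at 0.83 ± 0.09, SLC3A2 at 0.46 ± 0.09 and SLC38A2 at 0.47 ± 0.10. SLC7A14, with 46 and 63 counts in naive RH6 against 1 and 3 in naive RH5, was called higher and gets no fold. The 5 lower genes were SLC7A11 and SLC6A8, both at -0.90 with SE of 0.10 and 0.11, SLC7A2 at -0.84 ± 0.12, SLC7A8 at -0.62 ± 0.11, and SLC6A3, with 3 and 1 counts in naive RH6 against 12 and 16 in naive RH5 and no fold given. Naive RH6 and naive RH5 also differed in passage, 10 against 17, and line and passage cannot be told apart. The sum of fibroblast markers was 1118 and 914 CPM in naive RH6 against 544 and 590 CPM in naive RH5, with 6 of 11 genes higher and 2 lower. Mesendoderm markers were higher in 5 and lower in 2 of 11 genes, with sums of 363 and 399 CPM in naive RH6 against 334 and 313 CPM in naive RH5. Neural markers were higher in 0 and lower in 5 of 13 genes, with 577 and 844 CPM in naive RH6 against 859 and 1137 CPM in naive RH5. Of these neural sums NES alone made up 562 and 828 CPM in naive RH6 and 787 and 1066 CPM in naive RH5. Trophectoderm markers were higher in 2 and lower in 4 of 11 genes, with 642 and 633 CPM in naive RH6 against 685 and 713 CPM in naive RH5. The part of these markers in the differences was not tested.

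Levels were compared between genes as CPM per kilobase of exon, with exon lengths from GENCODE release 29 on a later build than the one named for the counts. In naive cells SLC7A5 was highest at a mean of 124 CPM per kb (range over 4 libraries 88.5 to 160), ahead of SLC38A2 at 96.8 (79.6 to 119) and SLC38A1 at 75.4 (68.8 to 83.7). The ranges of SLC7A5 and SLC38A2 overlapped, and so did those of SLC38A2 and SLC38A1. Within each naive library, though, SLC7A5 was above SLC38A2 and SLC38A2 above SLC38A1. SLC1A5 at 49.0 and SLC3A2 at 44.9 CPM per kb followed, with overlapping ranges but SLC1A5 the higher within each naive library. In primed cells SLC38A2 was highest at 106 CPM per kb, then SLC38A1 at 74.6 and SLC1A5 at 52.9, and SLC7A5 ranked 6 at 26.2. SLC1A3 ranked 10 in naive cells, at 14.7 CPM per kb, and 21 in primed cells, at 2.78. In shares of counts, SLC38A1, SLC38A2, SLC7A5, SLC7A11, SLC6A6, SLC3A2 and SLC7A1 together made up 75.9% to 80.0% of the transporter counts in naive libraries against 69.4% and 70.5% in primed libraries.

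**Figure D4:**
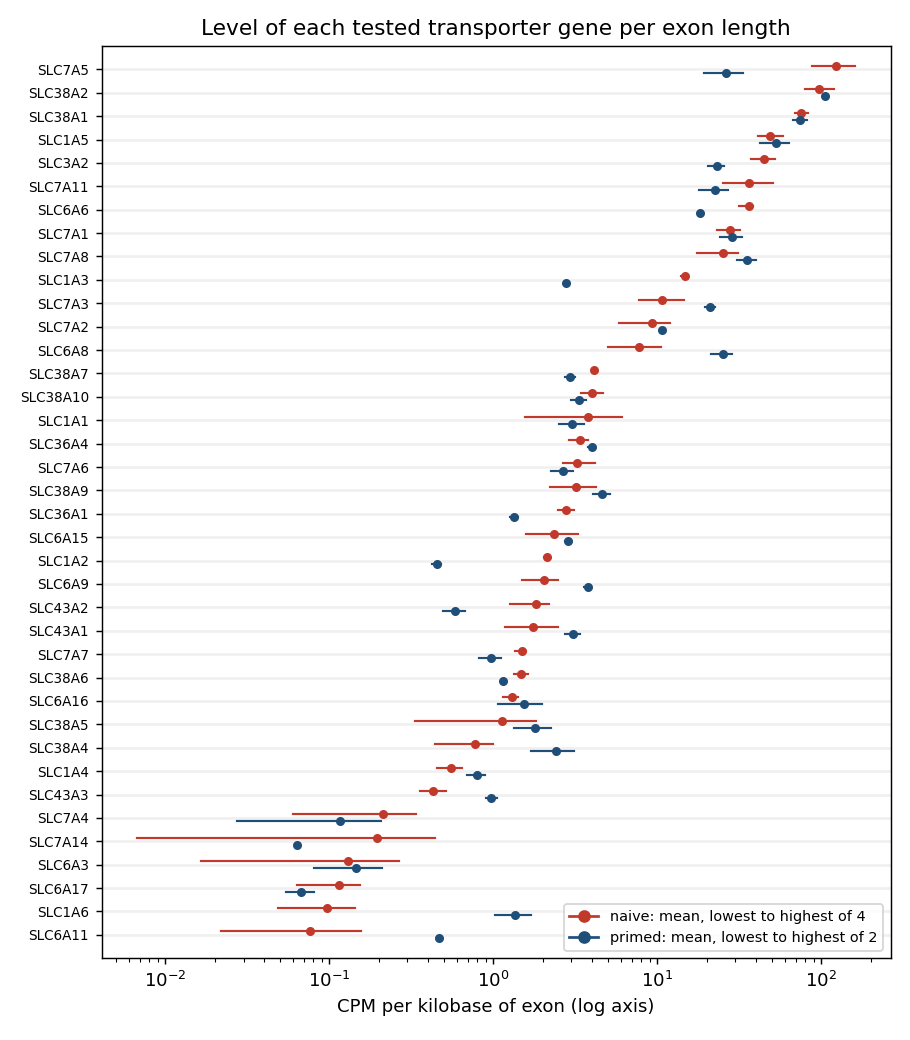
Mean level per kilobase of exon of the 38 tested genes on a log axis, ordered by the naive mean, with naive cells above primed cells in each row and lines from the lowest to the highest library. SLC7A5 tops the naive order at 124 CPM per kb, and SLC1A3, SLC1A2 and SLC1A6 show naive and primed ranges far apart.

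Other genes of amino acid handling were counted from fixed lists, with the shares of all genes given above as background. Of 18 further amino acid carriers tested, 2 were higher and 3 lower over both lines, among them SLC17A7, the vesicular glutamate carrier of neurons, at -2.40 ± 0.35, the mitochondrial aspartate-glutamate carrier SLC25A13 at 0.73 ± 0.13 and the mitochondrial glutamate carrier SLC25A22 at -0.73 ± 0.16. Of 33 genes of amino acid synthesis and breakdown, 6 were higher and 10 lower, led by IDO1, which breaks down tryptophan, at -4.91 ± 0.16, and including the proline oxidase gene PRODH at 1.41 ± 0.11.

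Of 13 genes of cystine and glutathione use, 5 were higher and 2 lower, with a median log2 fold change of 0.30. They included NQO1, a quinone reductase, at 1.84 ± 0.21, GGT1, which splits glutathione outside the cell, at 1.47 ± 0.17, and GCLM, a subunit of the enzyme for the first step of glutathione synthesis, at 0.94 ± 0.25. Of 35 genes of amino acid sensing by mTORC1, 5 were higher and 1 lower, among them RRAGD at -1.18 ± 0.20 and FNIP1 at 0.62 ± 0.12. Of 20 cytosolic tRNA synthetases, 3 were higher and 1 lower, with WARS at 0.97 ± 0.25, NARS at 0.61 ± 0.11 and TARS at -0.43 ± 0.11. Of 26 genes listed for the ATF4 response to amino acid shortage, 3 were higher and 2 lower over both lines, with ATF3 at 1.51 ± 0.11, CTH at 0.73 ± 0.22 and EIF2AK4 at -0.71 ± 0.10. That list also holds ATF4 itself and the upstream kinases EIF2AK3 and EIF2AK4, so not all of the 26 are response genes. Within the lines, 10 of these 26 genes were higher and 1 lower in naive RH6, and 3 were higher and 7 lower in naive RH5. The direct difference of the effects, RH6 minus RH5, was called for 7 of them, all higher in RH6.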

How the data were processed

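RNA levels came from 6 sequencing libraries. The table the authors deposited holds unnormalized read counts, whole numbers for each gene, with Ensembl identifiers and symbols. Per the submitters' processing notes the tools included STAR 2.4.0a and featureCounts 1.4.5-p1, and the builds hg19 and GRCh37.p5. Per the labels' protocols libraries came from a stranded total RNA kit, while the molecule field says polyA RNA. No annotation or strand setting is given in the sources used here, so overlapping opposite-strand genes cannot be told apart.

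Counts were tested with edgeR 4.0.16 in R 4.3.3 (quasi-likelihood F-test, TMM factors 0.964 to 1.029, filterByExpr by state with minima of 10 counts and 15 in total), two-sided, with Benjamini-Hochberg adjustment over all 19434 genes tested. Both lines were fitted with the line as a term (3 residual degrees of freedom, biological coefficient of variation 0.189). That fit holds a common effect of state, so unequal responses of RH6 and RH5 add to its residual spread. Effects within lines, their difference and naive RH6 against naive RH5 were taken from a model with a mean for each group (2 residual degrees of freedom, 0.0964). The scripts were tested on simulated data. CPM uses TMM-scaled library sizes. Duplicates differed by a chi-square per gene of 9.22 in naive RH6 and 5.76 in naive RH5, where counting noise gives about 1, and were kept apart. On these scaled sizes 3 counts were worth 0.201 to 0.224 CPM, the floor used.

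Alternatives were RLE and upper-quartile factors, DESeq2 1.42.0, voom in limma 3.58.1, no low-count filter, no line term, naive libraries summed, each library left out and a replicate block. Values in every library were given for genes called over both lines with a log2 fold change of at least 1 in size, genes whose difference between the lines was called, and 8 well known carriers; SLC6A6, outside this rule, was added after its values were seen, and SLC38A7, SLC7A8 and SLC6A9 were given by range. A few genes that other rules name (genes of low counts and leading genes of the lists) are not reported here. The genes, lists and rules were chosen with earlier results of these data known.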

Additional observations from a re-analysis of the deposited data

Results flagged for a closer look

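The effect of the naive state differed between the lines for 13 transporter genes, by a direct test of the difference of log2 effects (RH6 minus RH5) with edgeR's quasi-likelihood test at an adjusted p under 0.05. It was higher in RH6 by 4.63 for SLC7A14, 2.51 for SLC38A5, 2.30 for SLC1A1, 1.62 for SLC7A5, 1.05 for SLC38A9, 0.97 for SLC1A5, 0.94 for SLC7A3, 0.91 for SLC7A6, 0.85 for SLC7A1 and 0.79 for SLC3A2. The difference was -4.11 for SLC6A3, -1.32 for SLC6A8 and -0.81 for SLC7A2. The values of SLC7A14 and SLC6A3 come from 63 counts or fewer per library, are fitted values and are no bounds. In each line 1 primed library carries the primed side, and no test separates a line from its library or its passage numbers.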

How the results depend on the processing

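Over both lines the counts of 9 higher and 8 lower transporter genes were 4 and 1 after summing naive libraries by line (2.43% and 3.09% of all genes), and ranged from 8 to 15 and from 5 to 14 when 1 library was left out (6.79% to 16.5% and 8.33% to 15.9% of all genes). Leaving out 1 library gave 12 to 15 higher and 9 to 11 lower in RH6 (16.2% to 17.3% and 15.8% to 19.5% of all genes). In RH5 it gave 9 and 12 to 16 (14.8% to 20% and 14.8% to 19.7%). The difference had 9 to 13 and 3 to 4 (5.77% to 7.92% and 6.94% to 8.34%). For naive RH6 against naive RH5 there were 9 to 14 and 5 to 6 (8.42% to 12.1% and 11.8% to 13.1%). DESeq2 called 1 gene with a lower effect in RH6, against 3, and 3.33% of all genes. Numbers shared by the naive libraries did not pair them by any label (same-number correlation 0.14 over 2 pairs); with a replicate block on the 4 naive libraries 15 genes were higher and 9 lower in RH6 than in RH5, against 13 and 5, and 19.9% and 20.8% of all genes. Of 1690 values of 31 genes, 1536 kept direction and call, 59 lost the call, 58 gained it and 37 changed sign, mostly near 0; DESeq2 gave no adjusted p for 3 more, and the cause was not tested. Upper-quartile factors moved the median of all genes in RH6 to -0.11 and gave SLC38A1 -0.07 over both lines, SLC38A2 -0.02 and SLC6A15 -0.07 in RH6, and SLC1A3 -0.003 for the difference and -0.01 between naive groups, where SLC38A7 was 4e-04 with no low-count filter. Over both lines SLC1A1 was 0.34 with limma-voom, 0.31 without the line term and 0.09 with naive summed, SLC6A3 was 0.06 with limma-voom and SLC7A14 -0.03 with DESeq2. Without primed RH6 the fit over both lines gave the RH5 effect alone, and without primed RH5 the RH6 effect alone. This holds for the counts above and for the values below. With 1 library left out, values over both lines ran from -1.08 to 1.25 for SLC1A1, -0.57 to 0.42 for SLC1A5, -0.21 to 0.28 for SLC38A1, -0.36 to 0.11 for SLC38A2, -2.11 to 0.42 for SLC38A5, -0.72 to 0.06 for SLC6A15, -2.61 to 1.48 for SLC6A3, -0.44 to 0.42 for SLC7A1, -2.09 to 2.56 for SLC7A14, -0.63 to 0.16 for SLC7A2 and -0.17 to 0.75 for SLC7A6. They ran from -0.02 to 0.17 for SLC38A2, -0.14 to 0.07 for SLC38A9 and -0.09 to 0.14 for SLC6A15 in RH6, from -0.06 to 0.07 for SLC1A3 in the difference, and from -0.12 to 0.02 for SLC1A2, -0.07 to 0.06 for SLC1A3 and -0.88 to 0.29 for SLC38A4 between naive groups. Depth limited genes of few counts, such as SLC6A3 and SLC7A14, whose values here are fitted values and no bounds.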
